A study of Homo sapiens with 2 samples.

Results

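The ATP-binding cassette (ABC) transporters other than ABCB1 and ABCB4 were 46 genes read by 68 probes, out of 30238 gene names and 41000 probes on the array. They were chosen by name, as every gene symbol that begins with ABCA to ABCG followed by a digit, without ABCB1 and ABCB4. The choice was made with earlier results of these data known. Of the 46 genes, 45 had a probe whose accession matched a current RefSeq transcript, and ABCA17P, a pseudogene, kept the name in the files. The brighter ABCF2 probe carries an accession that RefSeq now gives to ABCF2-H2BK1, a readthrough gene.

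ABC transporters are membrane proteins that bind and hydrolyse ATP at nucleotide-binding domains and use that energy to move a substrate across a membrane. The subfamilies differ in their cargo. Many A and G members move sterols and phospholipids, and the B members of the mitochondrion handle haem and iron. Many C members export drugs and conjugates, and most D members carry fatty acids into the peroxisome. Members of subfamilies E and F have no membrane-spanning part and act in translation. In tumour cells the family is best known for pumping out anticancer drugs, and ABCC1, ABCC2 and ABCG2 are the members outside the ABCB1 group most often named for that.

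A2780 cells come from a human ovarian carcinoma. A2780CBN was selected stepwise in carboplatin, a platinum drug, up to 22.2 µM, and A2780CBNDXL was selected in carboplatin and docetaxel, a taxane, raised together. The labels and the study's text give its final doses differently, so none is printed here. Each line was set against A2780CC, drug-free A2780 cells kept in culture alongside, and the study's methods state that such a control was grown for each line, so that the same name stands for separate cultures. Selection was of a population, not of picked clones. Each line was 1 RNA sample, pooled from 3 isolations, on 4 two-colour arrays: both labelling directions, each on 2 slides. A SD over arrays therefore covers labelling and hybridization only, no test across samples could be made for these lines, and a ratio of signals cannot tell fewer transcript copies per cell from fewer cells that make the transcript.

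Ratios are given as log2 of resistant line over control, with the mean of the forward arrays and the mean of the reverse arrays weighted equally. A gene counted as measured when its probe was well above background in the resistant channel or in the control channel on all 4 arrays of a line. It counted as changed when the mean ratio was at least 2-fold, a log2 of 1, with the same sign on all 4 arrays. The first array of A2780CBNDXL stood apart, with spike-in coefficients of variation of 20.0% and 19.5% in its channels, against 3.56% to 4.87% in the other arrays. Between 59.8% and 67.5% of probes were well above background per array and channel. Of the epithelial markers KRT8 and KRT18 were well above background on every array, EPCAM was higher than control in both lines (2.07 and 1.67), KRT19 was dim, and KRT7 and CDH1 stayed near background throughout. Of the ovarian markers PAX8 and ESR1 were well above background and WT1 and MUC16 were not. VIM and the T cell gene CD3E were well above background, CD3E with ratios of 0.10 and -0.02, while PTPRC, PECAM1 and CDH5 were not. The fibroblast genes COL1A1 and DCN had a summed signal of 582 to 722 in A2780CBN against 223 to 312 in its control, and 6232 to 7607 in A2780CBNDXL against 562 to 915. The part of those genes in the values below was not tested.

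Promoter sequences of members that changed are shown first, because these genes moved in different directions and their upstream bases can be set side by side. Each run is the 250 bases before the RefSeq start in GRCh38.p14, written 5′ to 3′ on the gene's strand. ABCA1 and ABCA5 were higher in A2780CBNDXL, and ABCA3 and ABCB6 were lower. Capitals mark matches, on either strand, to the E-box CACGTG, the GC box GGGCGG, the TATA box TATAAA, the antioxidant element core TGACNNNGC and a direct repeat read by nuclear receptors.
ABCA1, chr9:104928156-104928405, minus strand: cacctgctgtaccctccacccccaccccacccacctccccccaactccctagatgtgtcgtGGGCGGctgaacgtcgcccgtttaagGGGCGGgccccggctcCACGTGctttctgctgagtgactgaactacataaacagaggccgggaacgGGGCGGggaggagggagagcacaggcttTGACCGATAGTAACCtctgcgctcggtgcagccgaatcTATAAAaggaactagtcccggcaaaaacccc
ABCA5, chr17:69327134-69327383, minus strand: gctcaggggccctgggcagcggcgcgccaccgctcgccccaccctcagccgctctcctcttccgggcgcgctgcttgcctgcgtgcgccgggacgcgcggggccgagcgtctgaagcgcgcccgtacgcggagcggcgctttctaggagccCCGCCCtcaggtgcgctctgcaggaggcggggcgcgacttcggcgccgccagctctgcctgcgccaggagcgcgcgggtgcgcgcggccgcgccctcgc
ABCA3, chr16:2340729-2340978, minus strand: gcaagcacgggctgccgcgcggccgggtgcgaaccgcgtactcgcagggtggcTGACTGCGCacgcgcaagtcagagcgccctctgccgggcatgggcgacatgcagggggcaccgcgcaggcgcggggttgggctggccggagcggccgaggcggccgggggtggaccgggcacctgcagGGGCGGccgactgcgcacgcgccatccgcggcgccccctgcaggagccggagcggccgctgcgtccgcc
ABCB6, chr2:219218959-219219208, minus strand: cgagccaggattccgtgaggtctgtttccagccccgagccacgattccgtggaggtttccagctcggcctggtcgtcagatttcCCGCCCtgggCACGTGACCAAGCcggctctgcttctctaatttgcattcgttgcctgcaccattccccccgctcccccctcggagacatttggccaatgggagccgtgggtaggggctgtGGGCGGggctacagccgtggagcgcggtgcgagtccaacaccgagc

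The nuclear receptor repeat, the form of site used by liver X receptors, lay 69 bases before the start of ABCA1, a cholesterol exporter known as a target of those receptors. It was found in 1 of 51 promoters of 34 member genes, and in 0.533% of all 35116 promoters. GGGCGG was found in 49.0% of the member promoters and 42.6% of all, CACGTG in 17.6% and 6.34%, TGACNNNGC in 17.6% and 10.9%, and TATAAA in 6 of 51 and 3763 of 35116. In ABCB6 the E-box and the antioxidant core overlap. Of the 12 members that changed, 8 had a promoter entry, and ABCD2, ABCG2 and ABCG4 had more than 1. A match is a run of letters and says nothing on whether a factor was bound.

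Of the 46 members, 30 were measured in A2780CBN, 28 in A2780CBNDXL and 27 in both. ABCA4, ABCA6, ABCA8, ABCA9, ABCA12, ABCB5, ABCB11, ABCC3, ABCC9, ABCC12 and ABCG8 stayed near background throughout, with no array well above it in either colour. In subfamily A 8 of 14 genes were measured in each line, in subfamily C 6 of 12 in A2780CBN and 5 in A2780CBNDXL, and in subfamilies E and F all 4. ABCC2, a canalicular exporter of conjugates and platinum adducts, reached that level in 1 control channel of 1 A2780CBNDXL array and nowhere else.

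In A2780CBN, 4 of 30 measured members were higher and 0 were lower. Over all 17947 genes measured in that line, 12.6% changed, 8.01% upwards and 4.57% downwards, against 13.3% of the members. In A2780CBNDXL, 4 of 28 members were higher and 6 lower, which is 35.7% of them, where 16.9% of 17108 genes changed, 7.72% upwards and 9.21% downwards. The median log2 ratio of the members was 0.07 in A2780CBN (SD 0.03 over arrays) and -0.19 in A2780CBNDXL (SD 0.12), against -0.06 and 0.04 over all genes measured. Without the first array of A2780CBNDXL, the one with variable spike-ins, 12 of 30 members changed in that line, where 17.3% of 18437 genes did. The 12 were those 10 together with ABCC11 and ABCD2, and the median of the members was -0.0538. The median size of the ratio, whatever its sign, was 0.22 for the members and 0.33 for all genes in A2780CBN, and 0.71 and 0.39 in A2780CBNDXL. The plot of ratios by array shows the genes on every array.

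**Figure D1:**
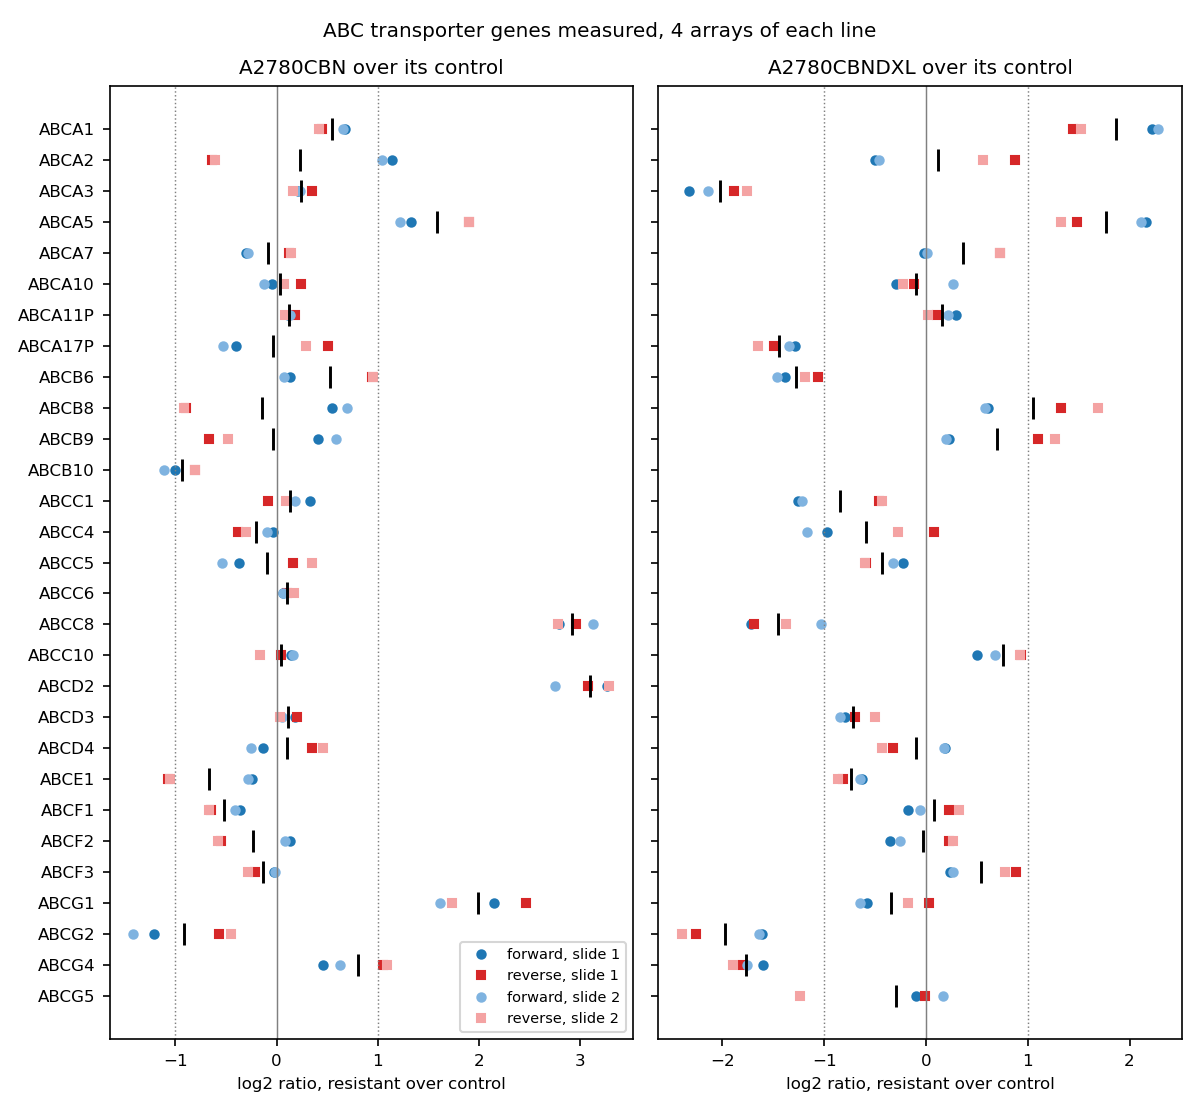
Log2 ratio of resistant line over control on the x axis for 28 ABC transporter genes measured in A2780CBN (left) and 26 measured in A2780CBNDXL (right). Points are the 4 arrays by labelling direction and slide, the black bar is their mean and the dotted lines mark 2-fold. ABCC8 and ABCD2 lie farthest right in A2780CBN, and ABCA3 and ABCG2 farthest left in A2780CBNDXL. The ABCD2 points in A2780CBN rest on a control signal that was not well above background.

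ABCC8 was the member with opposite changes in the lines. It encodes the sulfonylurea receptor SUR1, the regulatory subunit of the ATP-sensitive potassium channel of the beta cell. In A2780CBN its log2 ratios were 2.79, 2.96, 3.13 and 2.78, a mean of 2.91 (SD 0.16, 7.53-fold), from a mean processed signal of 644 in the resistant channel and 86.0 in the control. In A2780CBNDXL they were -1.72, -1.69, -1.03 and -1.38, a mean of -1.45 (SD 0.32, 2.74-fold lower), from 46.7 against 127. The resistant channel of A2780CBNDXL was well above background on 3 of 4 arrays. With normexp background correction and loess in place of the processed signals, ABCC8 had -0.30 in A2780CBNDXL at an offset of 50 and -0.70 at an offset of 1, under 2-fold, while in A2780CBN it was past 2-fold in every alternative run. With the control of the other line's arrays the A2780CBNDXL ratio was -0.93, also under 2-fold, and the downward call was lost too when both channels had to be well above background. No array of A2780CBN overlapped any array of A2780CBNDXL, and 1.84% of the 16122 genes measured in both lines changed in opposite directions. ABCC9, the related receptor SUR2, was not well above background in either line, and KCNJ11, the pore subunit that pairs with ABCC8, was not either.

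The remaining members that changed in A2780CBN were all higher. ABCG1, which exports cholesterol to high-density lipoprotein, had log2 ratios of 2.15, 2.47, 1.61 and 1.74 there, a mean of 1.99 (SD 0.39, 3.98-fold). In A2780CBNDXL it had -0.58, 0.03, -0.65 and -0.18, a mean of -0.34 (SD 0.32), so that the groups of arrays did not overlap. ABCD2, a peroxisomal carrier of very long-chain fatty acids, had a signal of 49.6, 53.1, 43.2 and 46.9 in A2780CBN, while its control read 4.8 to 6.4 and was not well above background. It was at least 2.22-fold higher in A2780CBN than in the control, since a control that was not well above background gives only a bound. With normexp and loess the ratios of ABCG1 were 0.40 and 0.92, and those of ABCD2 0.18 and 0.70, at offsets of 50 and 1, and neither gene passed the limit. In A2780CBNDXL the ABCD2 probe was well above background in the resistant channel on 3 arrays and in the control on 1, with ratios of 0.19, 1.32, 1.60 and 1.59, and so was not counted as measured.

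ABCA5 was the only member that changed in the same direction in both lines, where 4.03% of 16122 genes did so. It is a lipid transporter of lysosomes and late endosomes. Its log2 ratios were 1.33, 1.90, 1.22 and 1.90 in A2780CBN, a mean of 1.59 (SD 0.36, 3.00-fold), and 2.16, 1.49, 2.11 and 1.32 in A2780CBNDXL, a mean of 1.77 (SD 0.43, 3.41-fold). A second ABCA5 probe gave 1.53 (SD 0.41) and 1.99 (SD 0.18). The lines overlapped in their ratios, but the level differed: the mean signal was 240 against 81 in A2780CBN and its control, and 536 against 165 in A2780CBNDXL and its control. Set against the control of the other line's arrays, ABCA5 had a ratio of 0.66 in A2780CBN and 2.70 in A2780CBNDXL, and the first of these no longer reached 2-fold. With normexp at an offset of 50 and loess the ratio in A2780CBN was 0.61.

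Members that were higher in A2780CBNDXL besides ABCA5 included ABCA1 and ABCB8. ABCA1 had log2 ratios of 2.22, 1.44, 2.28 and 1.52, a mean of 1.87 (SD 0.45, 3.65-fold), from a signal of 1710 against 477. In A2780CBN its ratios were 0.68, 0.45, 0.66 and 0.41, a mean of 0.55 (SD 0.14), positive on every array and under 2-fold. A second, dimmer ABCA1 probe, not well above background in the control, was at least 2.69-fold higher in A2780CBNDXL. ABCB8, a carrier of the mitochondrial inner membrane, lay just inside the limit with 0.61, 1.33, 0.58 and 1.69, a mean of 1.05 (SD 0.55), and it was called in 10 of 18 alternatives. Its ratio was 0.42 and 0.64 with normexp and loess at offsets of 50 and 1, 0.97 with background-subtracted signals, 0.97 on slide 1 alone, 0.96 without the fourth array and 0.92 with the other control. In A2780CBN the forward and reverse arrays of ABCB8 disagreed in sign, from 0.55 and 0.69 to -0.90 and -0.92.

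Of the 6 members that were lower in A2780CBNDXL, ABCA3 had the lowest ratio. It moves phospholipid into lamellar bodies of lung cells and is also counted among the drug carriers. Its log2 ratios were -2.32, -1.88, -2.14 and -1.76, a mean of -2.03 (SD 0.25, 4.08-fold lower), from a signal of 607 against 2484. In A2780CBN they were 0.21, 0.35, 0.23 and 0.16, all above 0, with a mean of 0.24 (SD 0.08). ABCG4, a sterol transporter related to ABCG1, followed the same course, with -1.76 (SD 0.12, 3.39-fold lower) in A2780CBNDXL and 0.81 (SD 0.32) in A2780CBN, where every array was positive from 0.46 to 1.09. ABCB6, a porphyrin transporter, had -1.28 (SD 0.18) in A2780CBNDXL and 0.53 (SD 0.49) in A2780CBN, and a second probe had -0.94 (SD 0.12) and 0.56 (SD 0.05). With normexp and loess ABCG4 had -0.50 and -0.99 in A2780CBNDXL at offsets of 50 and 1, just under the limit in the latter. For ABCA3, ABCG4 and ABCB6 no array of one line overlapped the other line. As for ABCC8 and ABCG1, these are repeat arrays of 1 sample per line. The share of all genes that separated in this way was not counted.

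ABCG2, the breast cancer resistance protein, had negative ratios on every array of both lines and passed the limit in A2780CBNDXL. Its log2 ratios in A2780CBNDXL were -1.61, -2.26, -1.64 and -2.39, a mean of -1.98 (SD 0.41, 3.93-fold lower), from a signal of 26.6 against 102, with the resistant channel well above background on 2 of 4 arrays. In A2780CBN they were -1.22, -0.57, -1.42 and -0.46, a mean of -0.91 (SD 0.47), which did not reach 2-fold. Set against the control of the other line's arrays, ABCG2 passed the limit downwards in both lines. After normexp correction with loess the ABCG2 ratio in A2780CBNDXL was -0.37 or -0.88, by the offset, and no longer past the limit. ABCA17P, the pseudogene, had -1.44 (SD 0.16) in A2780CBNDXL and -0.03 (SD 0.51) in A2780CBN, where forward arrays were negative and reverse arrays positive. The plot of ratios in both lines sets these genes among all others.

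**Figure D2:**
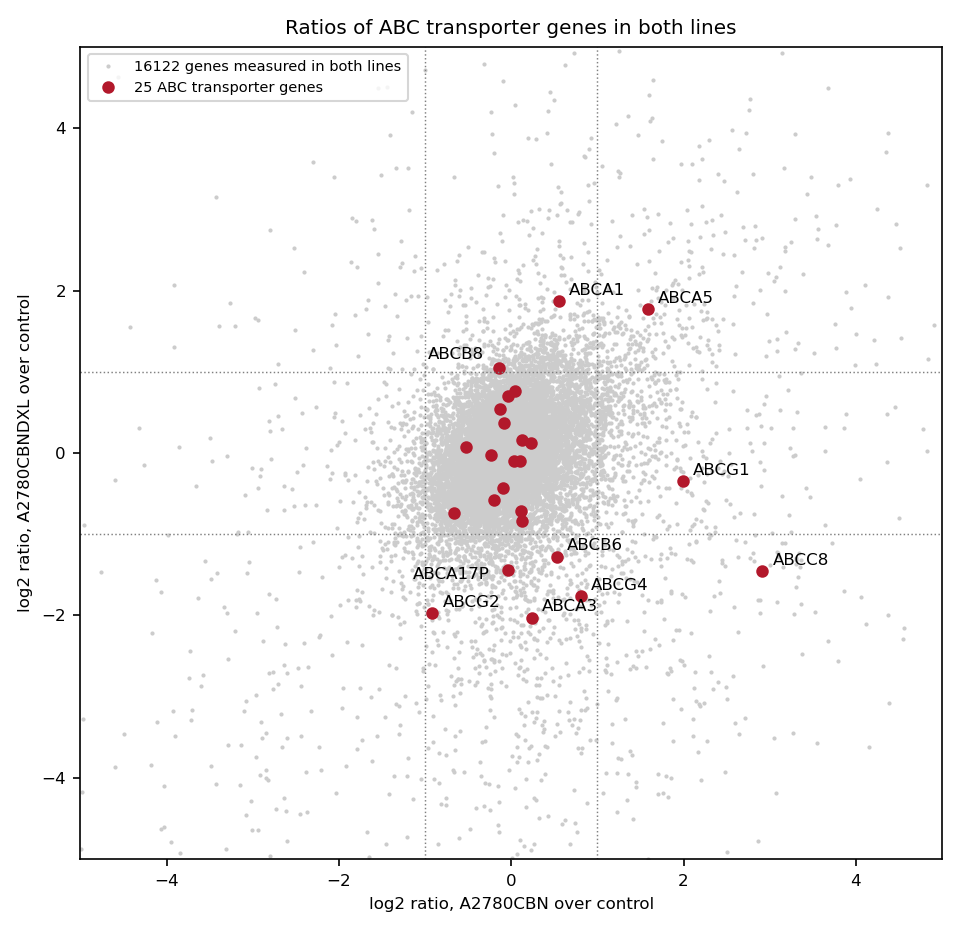
Log2 ratio over control in A2780CBN (x axis) and A2780CBNDXL (y axis) for 25 ABC transporter genes (red) and all 16122 genes measured in both lines (grey, of which 123 lie outside the axes). Dotted lines mark 2-fold, and red points past it in either line are named. ABCA5 lies in the upper right and ABCC8 in the lower right.

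Among 13 members known to carry drugs, 8 were measured in A2780CBN, where 0 changed, and 7 in A2780CBNDXL, where ABCA3 and ABCG2 were lower and 0 were higher. Over all genes 12.6% changed in A2780CBN, and 9.21% were lower and 7.72% higher in A2780CBNDXL. The median of the list was 0.07 in A2780CBN and -0.58 in A2780CBNDXL. ABCC1, the first of the multidrug resistance-associated proteins, had -1.26, -0.46, -1.22 and -0.43 in A2780CBNDXL, a mean of -0.84 (SD 0.46), and lay just outside the limit. In A2780CBN it had 0.13 (SD 0.17). ABCC4, which exports cyclic nucleotides and nucleotide analogues, had -0.58 (SD 0.58) in A2780CBNDXL and -0.20 (SD 0.16) in A2780CBN, and a second probe had -0.93 (SD 0.38) and -0.39 (SD 0.14). ABCC5, a related exporter, had -0.43 (SD 0.19) and -0.10 (SD 0.42), and a second probe had the opposite sign, 0.10 (SD 0.55) and 0.18 (SD 0.27). ABCC10, known to transport taxanes, had 0.50, 0.94, 0.68 and 0.92 in A2780CBNDXL, a mean of 0.76 (SD 0.21), and 0.04 (SD 0.15) in A2780CBN. It was positive on every array of A2780CBNDXL and remained under 2-fold.

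Some drug carriers could not be placed. ABCA2 had forward ratios of 1.14 and 1.04 and reverse ratios of -0.64 and -0.61 in A2780CBN, and the reverse pattern, -0.50 and -0.46 with 0.88 and 0.56, in A2780CBNDXL, so its means of 0.23 and 0.12 hide arrays that disagree. ABCC11 had ratios of 1.94 (SD 0.27) and 2.03 (SD 0.15), but its resistant channel was well above background on 2 arrays of A2780CBN and 3 of A2780CBNDXL, its control on 0 arrays. It was at least 1.31-fold higher in A2780CBN and at least 2.52-fold higher in A2780CBNDXL. ABCC3 read 15.2 against 8.95 in A2780CBNDXL, with neither channel well above background. Opposite signs of the forward and reverse means occurred in 11 of 30 members in A2780CBN and 6 of 28 in A2780CBNDXL. The share of all genes with opposite signs was not counted. The median size of the forward minus reverse log2 ratio was 0.27 for members and 0.35 for all genes in A2780CBN. In A2780CBNDXL it was larger for members, 0.53 against 0.32.

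The ABCC6 probes did not agree. The brightest, which reads a short transcript in the 5′ part of the gene at chr16:16222576-16222635 of NCBI36, had a log2 ratio of 0.10 (SD 0.05) in A2780CBN. The pair near the 3′ end, at chr16:16151356-16151415 and chr16:16152069-16152128, had 1.57 (SD 0.24) and 1.30 (SD 0.17), both past 2-fold on every array. In A2780CBNDXL the same pair had 0.33 (SD 0.25) and 0.43 (SD 0.49), and the 5′ probe had a missing array. By the rule on the brightest probe ABCC6 was unchanged in A2780CBN, and by either 3′ probe it was higher. Pseudogene copies of the 5′ part of ABCC6 are known, and whether this probe also matches them was not tested. ABCD3, the main peroxisomal membrane half-transporter, disagreed as well in A2780CBN, with 0.12 (SD 0.09) for the brighter probe and -1.07 (SD 0.63) for the other. Over 20 pairs of a gene and a line with at least 2 probes measured, these 2 disagreed. The plot of genes with more than 1 probe shows all of them.

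**Figure D3:**
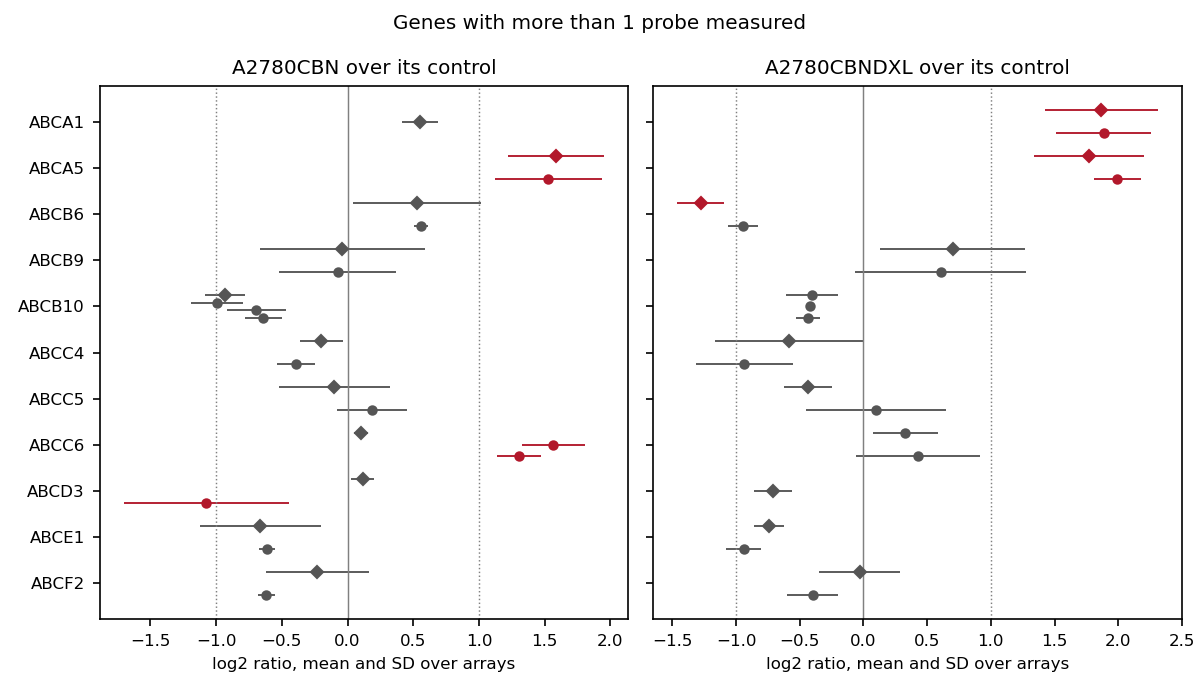
Mean log2 ratio (x axis) with SD over arrays for every measured probe of the genes that had at least 2 in a line, A2780CBN on the left and A2780CBNDXL on the right. Diamonds are the brightest probe, which stands for the gene, circles are further probes, and red marks probes past the 2-fold rule. The ABCC6 and ABCD3 probes of A2780CBN are apart, and those of ABCA5 and ABCB10 lie together.

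The designed 60-base probes below carry the values of members described here and lie in stretches that read as coding sequence. They are shown because each ratio rests on 1 such stretch of the transcript, and coordinates are those of NCBI36 in the files, with a span over 60 bases where the probe crosses an intron.
ABCC8, chr11:17371178-17371237, minus strand: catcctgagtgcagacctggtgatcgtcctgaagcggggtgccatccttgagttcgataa
ABCC6, chr16:16152069-16152128, minus strand: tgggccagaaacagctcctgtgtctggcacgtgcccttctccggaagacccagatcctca
ABCB6, chr2:219783247-219783388, minus strand: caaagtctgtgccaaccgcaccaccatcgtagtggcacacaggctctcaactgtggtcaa
ABCB8, chr7:150373229-150373288, plus strand: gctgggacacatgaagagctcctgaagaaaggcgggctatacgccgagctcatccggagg
ABCG2, chr4:89232450-89232509, minus strand: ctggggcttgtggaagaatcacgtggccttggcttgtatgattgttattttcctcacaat
ABCA5, chr17:64820883-64820942, minus strand: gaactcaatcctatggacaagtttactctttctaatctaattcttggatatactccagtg
ABCC4, chr13:94484951-94493952, minus strand: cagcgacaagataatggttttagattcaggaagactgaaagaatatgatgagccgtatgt
ABCC10, chr6:43524880-43525156, plus strand: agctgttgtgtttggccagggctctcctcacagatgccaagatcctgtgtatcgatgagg

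The longest run of identical bases between probes of different members was 12, over 2249 pairs of probes, shared by ABCB8 with ABCB5 and by ABCA8 with ABCA9. The ABCC6 probe is the 3′ one with a ratio of 1.30 in A2780CBN, the ABCA5 and ABCB6 ones are their second probes, and the ABCC4 one is the probe at -0.93 in A2780CBNDXL.

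The mitochondrial members ABCB6, ABCB8 and ABCB10 moved apart from one another. ABCB10, a haem-related carrier of the inner membrane, was nearest to the limit in A2780CBN from outside, with arrays from -1.11 to -0.81 and a mean of -0.93 (SD 0.15). Its 3 further probes had -0.99, -0.69 and -0.64 there, and all 4 arrays of each were negative. In A2780CBNDXL the brightest ABCB10 probe lacked an array, and the others had -0.43 to -0.41. In subfamilies E and F, 0 of 4 genes changed in either line. ABCE1, the ribosome recycling factor, had -0.66 (SD 0.46) and -0.74 (SD 0.12), negative on all arrays, and ABCF1 had -0.52 (SD 0.16) in A2780CBN and 0.08 (SD 0.23) in A2780CBNDXL.

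The lines were also set against each other without their ratios to control, using resistant channels of arrays matched on slide and dye. Of 28 members measured, 3 were higher in A2780CBNDXL and 4 lower, and over all 17081 genes 16.5% differed, 6.65% higher and 9.83% lower. ABCC8 differed most among the members, by -3.73, -4.18, -3.49 and -3.96 on the log2 scale, a mean of -3.84 (SD 0.30). ABCG4 had differences of -1.75, -2.13, -1.67 and -2.46 (SD 0.37). ABCA3 had a mean difference of -1.69 (SD 0.17) and ABCG1 of -1.55 (SD 0.24). ABCA1 was higher by 1.96 (SD 0.25), ABCA5 by 1.11 (SD 0.17) and ABCB8 by 1.07 (SD 0.41). ABCG2 differed by -0.95 (SD 0.82), from -0.01 to -1.79, and was within the limit.

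The controls of the lines were compared in the same way, and 1 of 28 members differed, where 4.70% of 16868 genes did, 3.34% higher and 1.36% lower in the A2780CBNDXL arrays. This was ABCA17P, whose control signal was 1.15 (SD 0.34) higher on the log2 scale in the A2780CBNDXL arrays. The resistant lines themselves differed in ABCA17P by -0.26 (SD 0.32), and with the control of the other line the ratio of -1.44 became -0.30. With normexp at an offset of 50 and loess it was -0.77. ABCB6 lay close behind, with a control 0.94 (SD 0.21) higher and a resistant line 0.87 lower (mean difference -0.87, SD 0.13). Its ratio of -1.28 became -0.34 with the other control. For ABCC8, ABCG4, ABCA3 and ABCA1 the controls differed by 0.53, 0.57, 0.57 and 0.64, each less than the difference between their resistant lines. The controls differed more for ABCG1, by 0.78 (SD 0.51), and for ABCA5, by 0.93 (SD 0.63), where the lines differed by 1.11. ABCD2 had a control difference of 1.83 and a line difference of -0.09. Its control in the A2780CBN arrays was not well above background.

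**Figure D4:**
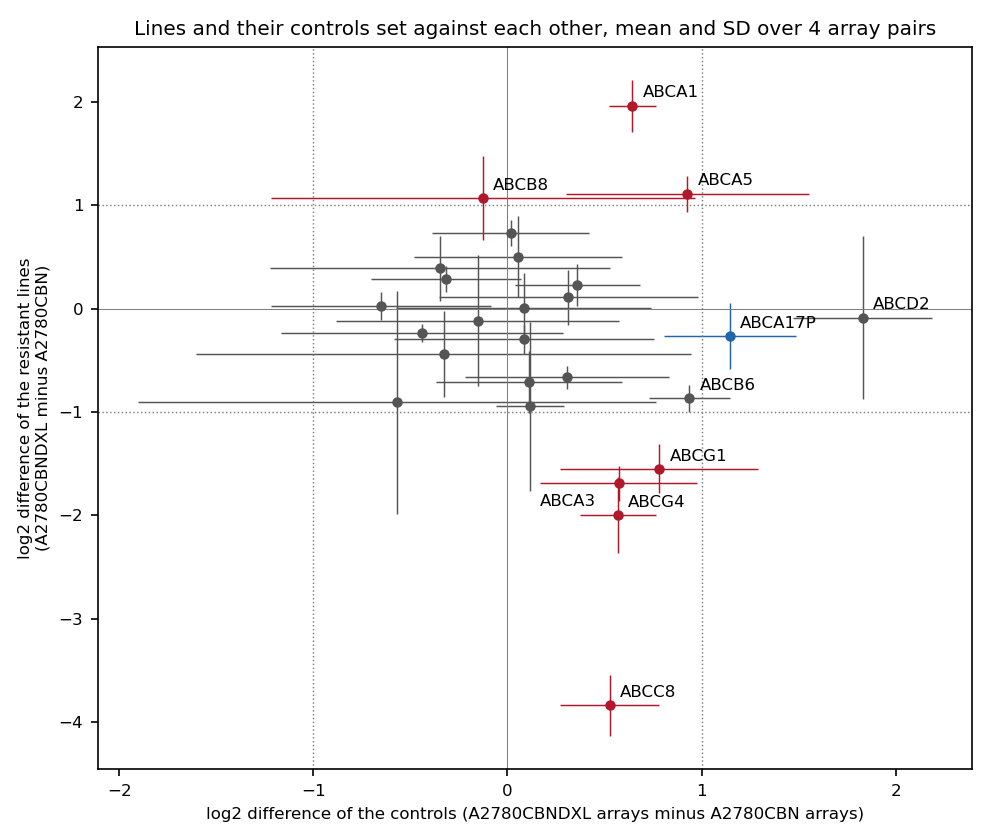
Log2 difference between the controls (x axis, A2780CBNDXL arrays minus A2780CBN arrays) and between the resistant lines (y axis) for 26 ABC transporter genes, with the mean and SD over 4 array pairs. Red marks genes whose lines differ at least 2-fold, blue the gene whose controls do, and ABCG5 is left out because its dim signal gave an SD of 3.15 between the lines. ABCC8 is at the bottom, ABCA1 at the top and ABCA17P to the right. ABCD2, farthest right, rests on a control not well above background.

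**Figure D5:**
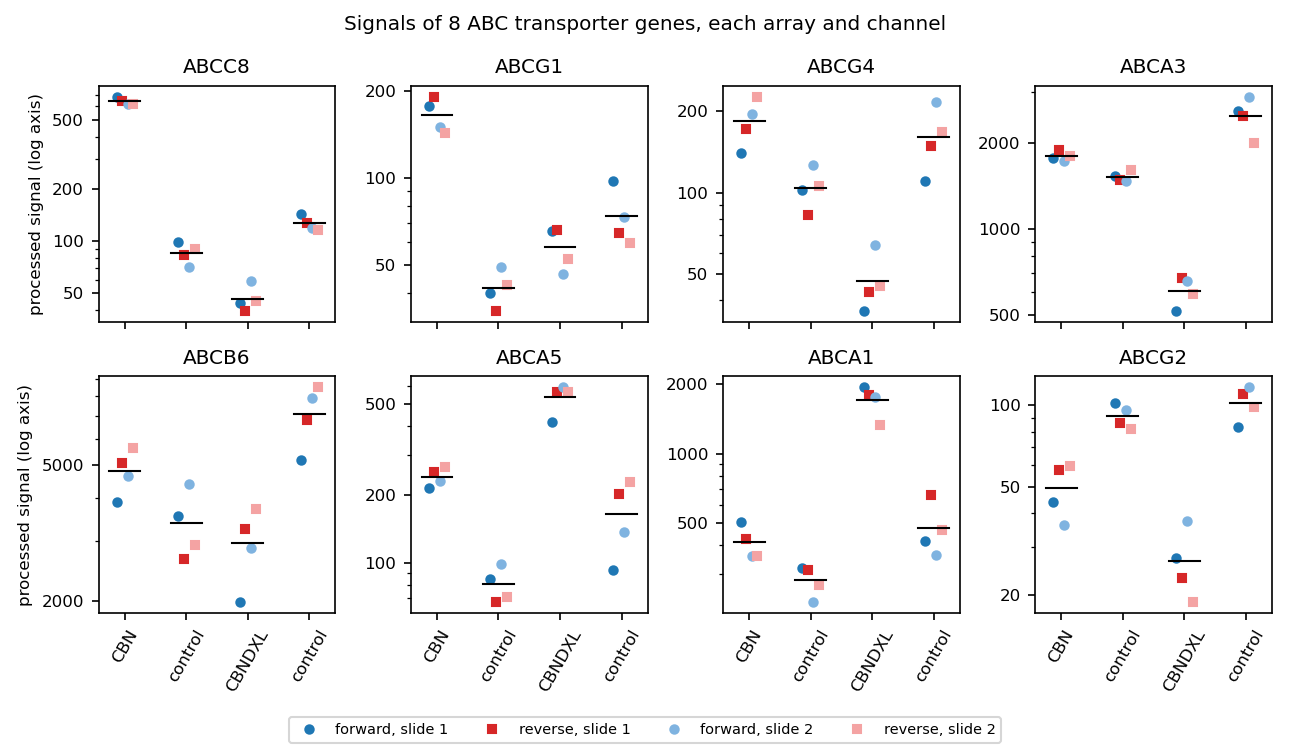
Processed signal (y axis, log scale, a separate scale for each gene) of 8 ABC transporter genes in both lines and their controls. Points are the 4 arrays by labelling direction and slide, and the bar is their mean. ABCC8 reads 644 in A2780CBN and 46.7 in A2780CBNDXL, and ABCA1 reads 413 and 1710.

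ABC genes named otherwise were described beside the members. TAP1, a subunit of the peptide transporter that loads MHC class I, had log2 ratios of 3.96, 3.63, 3.99 and 3.56 in A2780CBN, a mean of 3.79 (SD 0.22), and a mean of -2.56 (SD 0.19) in A2780CBNDXL. Its partner TAP2 had 0.58 (SD 0.22) and -1.13 (SD 0.08). Like ABCC8, TAP1 was past 2-fold upwards in one line and downwards in the other. Its controls were not alike, with a mean signal of 3456 in the A2780CBN arrays and 12515 in the A2780CBNDXL arrays. The resistant lines read 47332 and 2112. A TAP1 ratio to the control of the other line's arrays was not taken. CFTR, the chloride channel of the C subfamily, was not well above background.

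Among 26 regulators and partners of the transporters, 18 were measured in each line, 1 was lower in A2780CBN and 2 in A2780CBNDXL, and 0 were higher. Over all genes 4.57% were lower and 8.01% higher in A2780CBN, and 9.21% and 7.72% in A2780CBNDXL. PDZK1, a scaffold that binds transporter tails, had a signal of 6.93 against 104 in A2780CBN, the former not well above background, which makes it at least 4.56-fold lower, and a log2 ratio of -1.004 (SD 0.18) in A2780CBNDXL. EZR, the linker ezrin, had -1.01 (SD 0.11) in A2780CBNDXL and 0.50 (SD 0.28) in A2780CBN. The liver X receptor genes NR1H2 and NR1H3 had 0.40 (SD 0.08) and -0.42 (SD 0.06) in A2780CBNDXL, and the receptor partner RXRA had 0.65 (SD 0.19). ABCA1 was higher in that line, while ABCG1, also a cholesterol exporter, had -0.34 (SD 0.32). A role of the receptors in these ratios was not tested. NFE2L2, which acts through the antioxidant element, had 0.06 (SD 0.15) in A2780CBN and 0.10 (SD 0.40) in A2780CBNDXL, the latter with a missing array. None of these receptors and factors reached 2-fold.

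Neighbouring genes were compared by their order in GRCh38.p14, taking the 5 nearest measured genes on each side, coding genes or members. ABCD2 had 4 of 10 neighbours higher and 2 lower in A2780CBN, and 7 of 10 higher in A2780CBNDXL, where 7.72% of all genes were higher. Its nearest neighbours had 0.36 for KIF21A and 0.96 for SLC2A13 in A2780CBN, where ABCD2 itself has only a bound. In A2780CBNDXL KIF21A had 0.19 and SLC2A13 had 1.48, the latter past 2-fold. ABCA1 had 3 of 10 neighbours higher in A2780CBNDXL, among them NIPSNAP3B with 1.28 and SLC44A1 with 1.13 on either side of it. In A2780CBN the same neighbours had 0.39 and 0.35, and 2 of 10 neighbours of ABCA1 were lower. ABCG1 and ABCG2 also had 4 of 10 neighbours higher in A2780CBN, where 8.01% of all genes were higher, and ABCG1 had 1 lower. In A2780CBNDXL ABCG1 had 1 higher and 1 lower, and ABCG2 had 1 lower. ABCC8 had 1 of 10 neighbours higher in A2780CBN, and 2 higher and 2 lower in A2780CBNDXL. ABCG4 had 0 of 10 changed in A2780CBN and 1 lower in A2780CBNDXL. ABCA3 and ABCA17P lie next to each other and were both lower in A2780CBNDXL, while the gene on the other side of ABCA3, RNPS1, had 0.25. ABCA5 had 2 of 10 neighbours higher and 2 lower in A2780CBN, which were WIPI1, PRKAR1A, KCNJ2 and SOX9, and 2 lower in A2780CBNDXL. Next to ABCA5 lies ABCA10, which had 0.03 (SD 0.16) and -0.09 (SD 0.25) in the lines. The neighbour counts were made after the members' values were seen and were not tested.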

How the data were processed

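RNA of each line and of its co-cultured control was hybridized by the authors on Agilent 4x44K two-colour arrays. The deposited files hold intensity values per spot, extracted with Agilent Feature Extraction, version 10.7.1.1 for the first slide and 10.7.3.1 for the second; the processed signals used here were already background-subtracted and dye-normalized by that software. The authors' own analysis, made in Partek, was not used. Outlier spots were left out, spots of a probe were averaged, and log2 ratios were taken from the processed signals. Channels were scaled between arrays by Aquantile for the comparison of lines (limma 3.58.1, R 4.3.3). The dye entries are the same for forward and reverse arrays, and reverse arrays were turned over as their name states. Forward and reverse ratios then correlated at 0.58 to 0.61 over probes in A2780CBN and at 0.73 to 0.74 in A2780CBNDXL. The brightest probe stood for a gene. Background and dye steps can shift dim probes most, and precision is limited by 4 repeat arrays of 1 pooled sample per line. The calling step was tested on simulated data (Python 3.11.15).

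Members and lists were chosen with earlier results of these data known. By rule, the text names members past 2-fold in either line, drug carriers, members nearest the limit, members whose probes or controls disagreed, and listed genes past 2-fold. Others were named for their role or position, after their values were seen. Promoters and accessions came from RefSeq (GRCh38.p14). Some members are counted in the totals and are not reported here by name or in the figures.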

Additional observations from a re-analysis of the deposited data

Results flagged for a closer look

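Of the 27 members measured in both lines, 6 had arrays of opposite sign in the lines. All 4 arrays of one line lay on one side of 0, and all 4 of the other line on the opposite side. The share of all genes with this pattern was not counted. ABCC8, ABCA3, ABCB6, ABCG4 and ABCD3 were positive in A2780CBN and negative in A2780CBNDXL, and ABCF3 the other way. The mean log2 ratios in A2780CBN and A2780CBNDXL were 2.91 and -1.45 for ABCC8. For ABCA3 they were 0.24 and -2.03, for ABCB6 0.53 and -1.28, and for ABCG4 0.81 and -1.76. ABCD3, whose second probe was negative in A2780CBN, had 0.12 and -0.71, and ABCF3 had -0.13 and 0.54, both under 2-fold in each line. The difference between the lines was not tested for any of these genes, since each line was 1 sample.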

How the results depend on the processing

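With normexp correction and loess, at offsets of 50 and 1, 1 and 2 members changed in A2780CBN in place of 4, 4 and 5 in A2780CBNDXL in place of 10, 0 and 1 in both lines in place of 2, and 3 and 3 differed between the lines in place of 7; over all genes 607 and 1100 changed in A2780CBN in place of 2259, and 1175 and 1925 in A2780CBNDXL in place of 2896. A 1.5-fold limit gave 8 members in A2780CBN, 15 in A2780CBNDXL, 5 in both lines and 13 between the lines, with 4867 and 5705 genes. A 3-fold limit gave 5 in A2780CBNDXL, 1 in both lines and 4 between the lines, with 1127 and 1467 genes. The count in both lines was 4 on slide 2 alone and with no filter on dim probes. It was 1 with both channels well above background or with the other line's control. With the other control that member was ABCG2, lower in each line, and ABCA5 was not called in A2780CBN. That control gave 5 of 29 members in A2780CBN, of which ABCA17P and ABCG2 were lower, where 13.6% of all genes changed. It gave 7 of 27 in A2780CBNDXL, with ABCC5 among those lower, where 17.6% of all genes changed. The A2780CBN median of 0.07 became 0.11 with normexp at an offset of 1, 0.14 with background-subtracted signals, 0.0425 as a mean over probes, 0.0387 with no filter, 0.0437 with both channels well above background, and -0.0175 with the other control. The A2780CBNDXL median of -0.19 became -0.0625 on slide 2 alone, -0.0619 with both channels well above background, and 0.0782 with no filter. Leaving out 1 array gave 4 to 4 members in A2780CBN, 9 to 12 in A2780CBNDXL, 2 to 3 in both lines and 6 to 9 between the lines, with medians of 0.0401 to 0.0813 and -0.289 to -0.0538. With 1 array left out, 12.4% to 12.8% of all genes changed in A2780CBN and 16.6% to 17.3% in A2780CBNDXL. The 3-way ANOVA of the methods' kind gave 4 and 9 members, without ABCB8, and 12.4% and 15.5% of all genes. With limma it was 4 and 10 members, and 12.6% and 17.0% of all genes. With both channels well above background, 1514 and 1964 genes changed. No ratio of a named member changed sign past the limit. No paired analysis was possible because each line was 1 sample. Signal near background limits ABCD2, ABCC11, ABCG2 and ABCC8 in A2780CBNDXL.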
